A study of Mus musculus with 4 samples.

Results

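The immunoglobulin gene segments described here are the 264 genes, of 54532 in the count table, that the table labels as variable (V), diversity (D), joining (J) or constant (C) immunoglobulin genes. They comprise 218 V, 19 D, 14 J and 13 C segments. By chromosome, 144 belong to the heavy chain locus on chromosome 12 (113254830 to 116000461), 108 to the kappa light chain locus on chromosome 6 (67555497 to 70726966) and 12 to the lambda light chain locus on chromosome 16 (19061618 to 19260859), in mm10 coordinates. RNA came from thymic epithelial cells on a C57BL/6 background, labelled as medullary cells (mTEC, UEA1pos) or cortical cells (cTEC, UEA1neg) after UEA1, a lectin that marks medullary epithelium. Both populations were taken from SCD1 knockouts and from littermate controls (genotype WT), and each of the 4 combinations has 1 library. The labels do not state the age, sex or number of the mice, which part of Scd1 was removed, or how the cells were separated.

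Antibody genes are assembled in developing B cells, where a V segment is joined to a J segment, with a D segment between them in the heavy chain, and the joined exon is spliced to a constant gene. The heavy chain constant gene sets the class: Ighm gives IgM, Ighd IgD, the Ighg genes IgG, Ighe IgE and Igha IgA, and a B cell can switch from IgM to another class. A single B cell and its progeny use a single productive V segment per chain, and plasma cells, the antibody-secreting form, carry far more immunoglobulin RNA than resting B cells. The thymus holds a resident population of B cells, many of them in the medulla.

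Total reads assigned to genes were 15740383 to 18151725 per library. The targeted gene Scd1 had 1310 control and 278 knockout reads in mTEC and 325 and 73 in cTEC. The population labels were checked against their markers. Aire, the medullary transcription regulator gene, had 21598 and 22186 reads in mTEC against 575 and 590 in cTEC, and the cortical thymoproteasome gene Psmb11 had 706 and 1026 against 8462 and 12201 (control, then knockout, in each pair). With 1 library per group no difference has a replicate check, no p-value is given, and the 95% intervals cover counting error only, so every comparison is of these libraries and not of the conditions.

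V segments that led their chain in knockout mTEC or in a cTEC library are shown first, since single segments carry several of the differences described here. The lines give the last 120 bases of the germline transcript from GENCODE release M21 (GRCm38), 5′ to 3′ on the coding strand. Capitals mark the last codon of the stretch TANTNNTGN, searched on this strand only, which codes for the conserved cysteine before the third complementarity-determining region. The stretch lies in the last 120 bases of 210 of the 218 V segments (96.3%). Ighv1-53 (chr12:115158403-115158835, minus strand) and Igkv12-44 (chr6:69814631-69815154, minus strand) led the heavy and kappa V reads of knockout mTEC. Igkv4-68 (chr6:69304834-69305405, minus strand) led the kappa V reads of control cTEC and Igkv4-59 (chr6:69438218-69438757, minus strand) those of knockout cTEC. Ighv3-6 (chr12:114288152-114288582, minus strand) led the heavy V reads of both cTEC libraries.
Ighv1-53: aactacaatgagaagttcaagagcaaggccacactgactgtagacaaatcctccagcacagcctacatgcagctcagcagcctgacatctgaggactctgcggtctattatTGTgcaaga
Igkv12-44: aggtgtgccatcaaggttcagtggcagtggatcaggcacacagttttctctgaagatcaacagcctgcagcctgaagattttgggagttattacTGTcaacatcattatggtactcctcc
Igkv4-68: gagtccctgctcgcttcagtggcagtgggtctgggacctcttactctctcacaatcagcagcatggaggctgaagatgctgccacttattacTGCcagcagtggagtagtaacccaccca
Igkv4-59: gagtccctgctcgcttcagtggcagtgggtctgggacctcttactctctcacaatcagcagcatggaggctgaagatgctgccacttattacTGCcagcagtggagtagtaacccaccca
Ighv3-6: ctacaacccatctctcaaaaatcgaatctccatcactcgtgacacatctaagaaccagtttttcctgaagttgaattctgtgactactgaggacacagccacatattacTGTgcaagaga

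Igkv4-68 and Igkv4-59 differ at 0 of these 120 bases, although they are separate genes with different reads in the libraries. Over the whole transcript Igkv4-59 differs from Igkv4-68 at 15 of 368 aligned bases. The closest listed relatives of Ighv1-53 are Ighv1-55 and Ighv1-64 (each 95.4% identical over 351 bases) and that of Igkv12-44 is Igkv12-41 (95.7% over 347). Near-identical sequence is common in the family: the median V segment shares 23.0% of its 50-base windows with another gene, and 100 of 218 share 25% or more. The shares were 57.6% for Ighv1-53, 30.7% for Igkv12-44, 74.3% for Igkv4-59, 48.7% for Igkv4-68 and 3.32% for Ighv3-6. How the authors counted reads that map to several places was not stated, so assignment among close V relatives is uncertain. The 13 constant genes had a median of 0 shared windows.

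The lambda locus has 3 listed V segments, and Iglv1 and Iglv2 are close relatives (12 differing bases of 366 aligned). Their last 120 bases are shown with the 4 bases that differ in capitals, because reads between these marks cannot separate them.
Iglv1: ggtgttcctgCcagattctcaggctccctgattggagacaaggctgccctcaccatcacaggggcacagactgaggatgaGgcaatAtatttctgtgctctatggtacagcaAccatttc
Iglv2: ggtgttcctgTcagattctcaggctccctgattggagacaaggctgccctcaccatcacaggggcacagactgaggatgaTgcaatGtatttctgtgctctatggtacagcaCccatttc

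Summed over all segments, immunoglobulin reads came to 5596 for control mTEC, 7187 for knockout mTEC, 4229 for control cTEC and 4318 for knockout cTEC, and values without library names follow this order throughout. Scaled to a common library size (CPM, counts relative to the TMM-scaled library total), these were 328 (95% interval 320 to 337), 409 (400 to 419), 277 (268 to 285) and 246 (239 to 254). The 4 levels span less than a 2-fold range and knockout mTEC was the highest. Constant genes took 72.5% to 73.2% of the immunoglobulin reads in every library and V segments 26.7% to 27.3%, so the division between the kinds of segment hardly varied. D and J segments were almost unread: 1 D read in all and 2 to 20 J reads per library. J segments are 38 to 54 bases long and D segments 10 to 29. The read length is not stated, and whether segment length bears on these counts was not tested. The best-read J segment, Iglj1 (chr16:19063225-19063262, minus strand), had 2, 7, 0 and 1 reads. The best-read heavy J segment, Ighj4, had 0, 3, 1 and 0, and the kappa segments Igkj4 and Igkj5 had 6 reads each over the 4 libraries. Iglj1 is printed to show how short such a segment is, with a stretch in capitals that codes for the phenylalanine and glycine motif of light chain J segments (TTCGG, then 4 bases, then GGN). The stretch was searched on the coding strand only and is present in 8 of the 14 J segments, and its heavy chain counterpart (TGGGG in place of TTCGG) in 3.
Iglj1: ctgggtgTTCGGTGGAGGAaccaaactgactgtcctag

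Of the 264 segments, 182 had a read in at least 1 library, 38 had a read in all 4, and 41 had 50 or more reads over the 4 libraries. Of the 13 constant genes 10 were read in every library, and of the 218 V segments 28. Another 59 V segments had no read at all. These 59 shared a median of 17.8% of their windows with other genes, against 24.2% for the 159 V segments with a read.

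Ighm was the most-read single heavy constant gene in every library, although in knockout mTEC the 4 IgG genes together (45.8% of heavy constant reads) exceeded it. It had 1508, 1393, 1163 and 1477 reads. Its level was 88.5, 79.3, 76.1 and 84.3 CPM, the narrowest fold range of the constant genes with 10 or more reads. Among heavy constant reads its share was 56.5% (exact binomial interval 54.6 to 58.4), 40.9% (39.2 to 42.5), 54.7% (52.6 to 56.8) and 66.8% (64.8 to 68.8). Knockout mTEC was the lowest and knockout cTEC the highest, and the intervals of both lay apart from those of the controls, which overlapped. Ighd, which is spliced from the same precursor as Ighm in naive B cells, had 21, 41, 0 and 9 reads.

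Ighg2b, the IgG2b constant gene (chr12:113302965-113307933), showed the largest difference in share of the heavy constant reads between the genotypes, in mTEC. It had 380 reads in control mTEC and 1328 in knockout mTEC, against 369 in control cTEC and 233 in knockout cTEC. In mTEC this was 22.3 and 75.6 CPM, 3.39-fold higher in the knockout library (log2 ratio 1.76, 1.60 to 1.93). In cTEC the log2 ratio was −0.86 (−1.10 to −0.62). Ighg2b thereby made up 39.0% of heavy constant reads in knockout mTEC (37.3 to 40.6), beside 10.5% to 17.4% in the other 3 libraries.

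The other IgG genes each stood high in a different library. Ighg3 (IgG3) had 149, 45, 8 and 13 reads and was highest in control mTEC. Ighg2c, the IgG2 gene that C57BL/6 mice carry in place of Ighg2a, had 75, 78, 229 and 34 reads and was highest in control cTEC. Ighg1 (IgG1) had 38, 109, 44 and 6 reads and was highest in knockout mTEC. The composition of IgG thus differed between libraries: Ighg3 was 23.2% of IgG reads in control mTEC and 1.23% to 4.55% elsewhere, and Ighg2c was 35.2% in control cTEC and 5.0% to 11.9% elsewhere. Per kilobase of gene the share of Ighg2c among heavy constant reads rises to 4.45%, 3.82%, 16.2% and 2.39%, which in control cTEC puts it above Ighg2b (12.9%). Taken as a class, the 4 IgG genes had 642, 1560, 650 and 286 reads, a log2 ratio of knockout over control of 1.24 (1.10 to 1.37) in mTEC and −1.38 (−1.59 to −1.18) in cTEC.

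IgA and IgE completed the classes. Igha had 493, 381, 313 and 439 reads, 18.5%, 11.2%, 14.7% and 19.9% of heavy constant reads. Ighe had 34 reads in knockout mTEC, 3 in control mTEC and 0 of 2126 and 2211 heavy constant reads in control and knockout cTEC. A count of 0 there allows 0.196 CPM in control cTEC and 0.171 in knockout cTEC, at the floor of 3 counts used here. All classes beyond IgM and IgD together made up 42.7%, 57.9%, 45.3% and 32.8% of heavy constant reads.

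**Figure D1:**
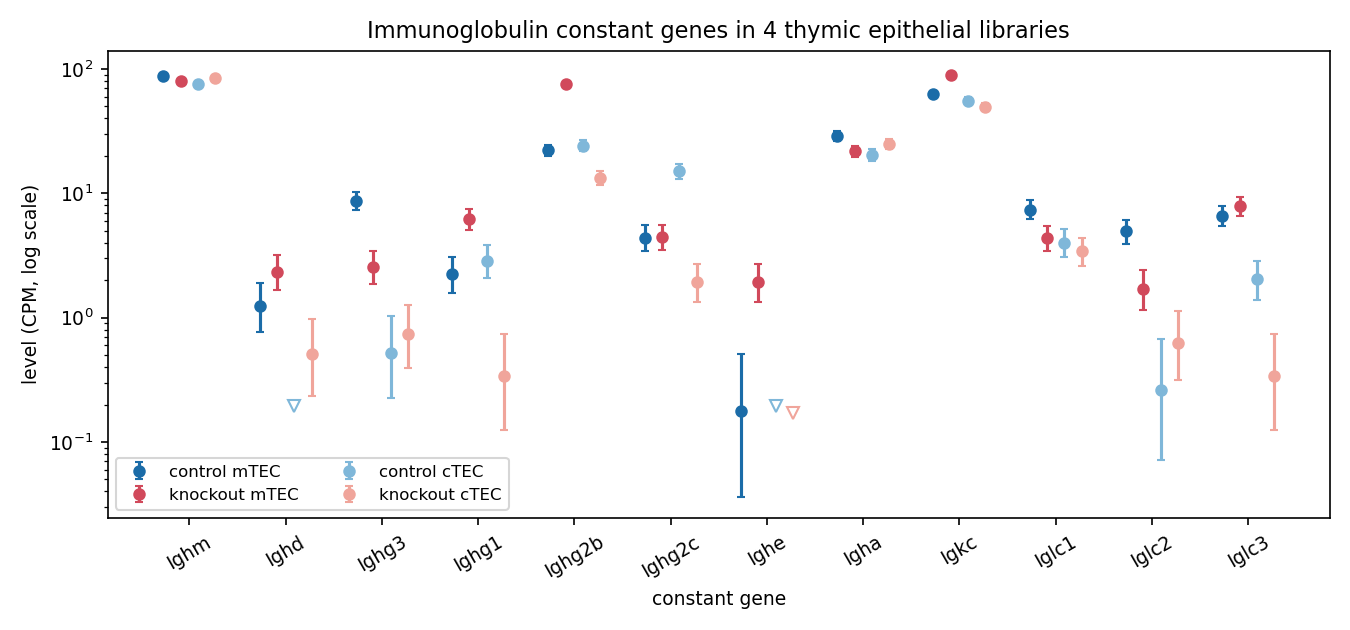
Level of each immunoglobulin constant gene with a read in the 4 libraries, in CPM on a log scale, with 95% Poisson counting intervals; open triangles mark the level of 3 counts where a gene had 0 reads, and genes are ordered within the heavy chain from Ighm to Igha. Ighm lies between 76.1 and 88.5 CPM throughout, while Ighg2b reaches 75.6 in knockout mTEC and 13.3 to 24.1 in the other libraries.

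Kappa was the main light chain in every library, as it is in mouse antibodies in general. Igkc (chr6:70726435-70726966) had 1070, 1581, 850 and 873 reads, or 62.8, 90.0, 55.6 and 49.8 CPM. The log2 ratio of knockout over control was 0.52 (0.41 to 0.63) in mTEC and −0.16 (−0.30 to −0.02) in cTEC. Of light constant reads Igkc was 76.9% (74.6 to 79.1), 86.6% (84.9 to 88.1), 89.9% (87.7 to 91.7) and 91.9% (90.0 to 93.6). By constant reads the lambda share was thus largest in control mTEC. By V reads the control libraries could not be told apart within counting error. Kappa V segments held 81.2% (78.5 to 83.7), 90.0% (88.1 to 91.7), 80.4% (77.3 to 83.2) and 90.2% (87.7 to 92.3) of light V reads. Both control libraries thus stood below both knockout libraries. Per kilobase of gene (RPKM, the CPM divided by the length in kilobases), Igkc stood at 93.6 to 169 and Ighm at 40.3 to 46.9, so the short kappa gene was the more abundant per length in every library.

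Lambda constant reads were higher in mTEC than in cTEC, with 322, 245, 96 and 77 reads. Iglc1 had 126, 77, 61 and 60 reads, Iglc3 had 112, 138, 31 and 6, and Iglc2 had 84, 30, 4 and 11, while Iglc4 had none in any library. Iglc2 and Iglc3 share 95.3% identity. In the mouse lambda locus Iglv2 joins mainly to Iglc2 and Iglv1 to Iglc3 or Iglc1. Iglv2 had 58, 4, 3 and 2 reads, and Iglc2 was likewise highest in control mTEC. In knockout mTEC, however, Iglc2 had 30 reads and Iglv2 only 4. The remaining lambda V segment, Iglv3, had 23, 19, 4 and 1 reads and held 17.4% of lambda V reads in knockout mTEC. Iglv1 had 84, 86, 135 and 64 reads and was the leading lambda V segment in all 4 libraries, from 50.9% of lambda V reads in control mTEC (43.0% to 58.8% by counting error) to 95.5% in knockout cTEC. Control cTEC had more Iglv1 reads than lambda constant reads (135 against 96), the only library in which lambda V reads outnumbered lambda constant reads.

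Single heavy and kappa V segments took a much larger share in knockout mTEC than elsewhere. Ighv1-53 had 14, 308, 9 and 38 reads, and Igkv12-44 had 8, 348, 0 and 6. In knockout mTEC, Ighv1-53 was 36.7% of heavy V reads (33.4 to 40.1) and Igkv12-44 was 35.4% of kappa V reads (32.4 to 38.5). The next segments there had 41 heavy reads (Ighv7-3, 4.89%) and 103 kappa reads (Igkv1-110, 10.5%). In the other libraries the leading segment took 9.41% to 12.2% of heavy V reads and 8.27% to 16.9% of kappa V reads. The levels of the pair in knockout mTEC were close per length, at 49.9 RPKM for Ighv1-53 and 49.4 for Igkv12-44, beside 28.2 for Ighg2b over its full annotated length and 169 for Igkc.

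The leaders in the other libraries changed from library to library. Ighv1-26 led the heavy V reads of control mTEC, with 61, 12, 23 and 25 reads over the 4 libraries. Igkv2-112 led the kappa V reads of control mTEC, with 59, 0, 26 and 0. Ighv3-6 led both cTEC libraries, with 9, 2, 52 and 47 reads. Igkv4-68 led control cTEC (0, 1, 98 and 20 reads), and Igkv4-59, whose printed bases are the same, led knockout cTEC (24, 24, 0 and 87). Ighv7-1 was second in control mTEC and in control cTEC (52, 25, 43 and 0), and Ighv1-22 in knockout cTEC (31, 0, 0 and 42). Igkv1-110 was read well everywhere (53, 103, 33 and 72 reads). Of 218 V segments only Igkv1-110 and Iglv1 had 20 or more reads in all 4 libraries, and 27 reached 20 reads in a single library.

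The evenness of V use can be given as an effective number of segments (the inverse Simpson index), which equals the number of segments in use if all were equally frequent. For the heavy chain it was 26.9, 6.75, 16.5 and 18.2. For kappa it was 26.2, 6.69, 14.0 and 14.8. Without its leading segment, knockout mTEC had 29.7 for the heavy chain and 17.3 for kappa, and control mTEC 29.0 and 26.9. Without Ighv1-53 the heavy chain number of knockout mTEC thus lay next to that of control mTEC, while the kappa number without Igkv12-44 remained below it. With a read there were 65, 67, 30 and 37 of the 113 heavy V segments, so more segments were read in the mTEC than in the cTEC libraries, which also had fewer heavy V reads (648, 839, 427 and 472).

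**Figure D2:**
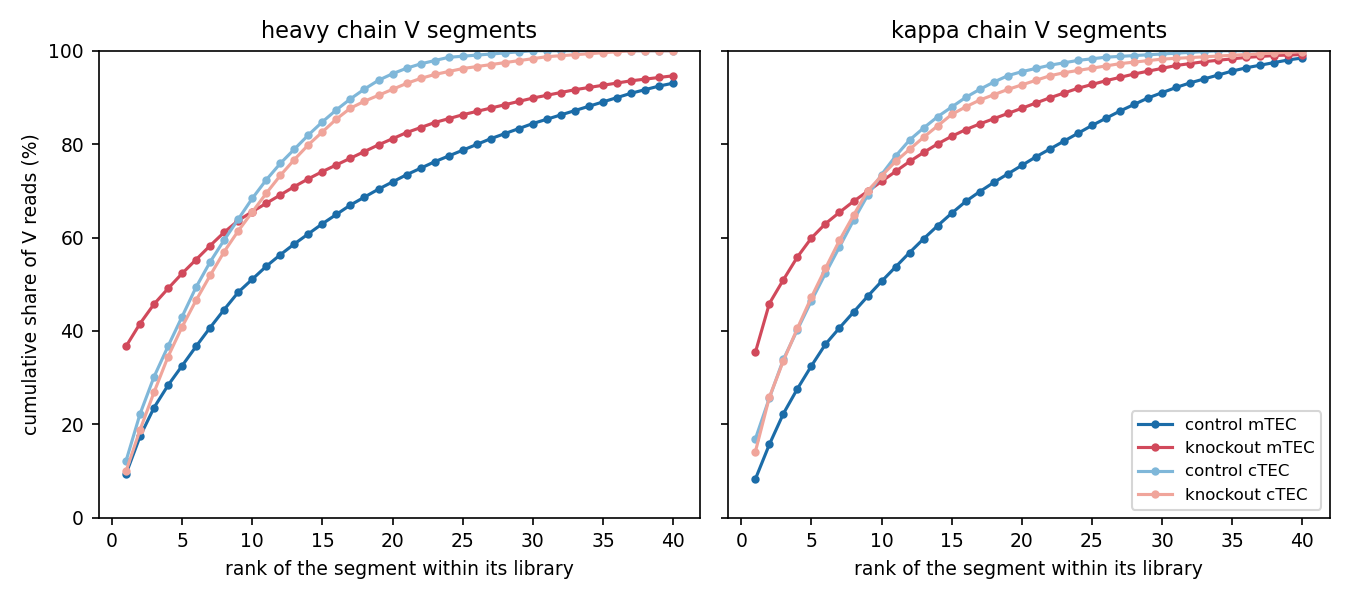
Cumulative share of V reads (percent) against the rank of the segment within its library, for the 113 heavy and 102 kappa V segments; each line is 1 library and the first 40 ranks are drawn. Knockout mTEC starts at 36.7% for the heavy and 35.4% for the kappa chain, against at most 12.2% and 16.9% in the other 3 libraries.

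V segments were also grouped into families by the first number of the name. Ighv1, the largest heavy family with 53 of 113 segments, held 56.5%, 69.1%, 44.7% and 54.2% of heavy V reads. Ighv3 held 12.2% and 11.2% in the cTEC libraries and 1.54% and 0.477% in mTEC, which rests on Ighv3-6. Igkv4, the largest kappa family with 26 of 102 segments, held 18.8%, 9.66%, 38.7% and 19.2% of kappa V reads, and Igkv12 held 37.0% in knockout mTEC and 2.95% to 6.49% elsewhere. By place in the locus, the 56 heavy V segments nearest the J segments held 44.0%, 34.7%, 55.0% and 44.9% of heavy V reads. The 51 nearest kappa V segments held 53.0%, 63.9%, 39.6% and 45.8% of kappa V reads. Ighv1-53 lies in the far part of its locus and Igkv12-44 in the near part of its own.

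The first comparison sets knockout against control in mTEC. A segment was counted as higher or lower if the pair of libraries had at least 50 reads, the log2 ratio was at least 1 in size and its counting interval excluded 0. Of 26 segments with enough reads, 6 stood higher and 7 stood lower in knockout mTEC, while over all 16466 genes tested 0.935% passed in either direction (0.504% higher and 0.431% lower). The higher segments were Igkv12-44 (log2 ratio 5.31, 4.4 to 6.62), Ighv1-53 (4.37, 3.65 to 5.30), Igkv16-104 (2.71), Igkv1-117 (2.16), Ighg2b (1.76) and Ighg1 (1.46). The lower ones were Igkv2-112 (59 and 0 reads), Igkv6-32 (−3.81), Iglv2 (−3.74), Ighv1-26 (−2.34), Ighg3 (−1.76), Iglc2 (−1.51) and Ighv7-1 (−1.09). With its 0 reads set to the floor of 3 counts, Igkv2-112 was 20.3-fold lower. The median log2 ratio of the 26 was 0.02, beside 0.0064 over all genes, and the median size of the ratio was 0.997, beside 0.112. Immunoglobulin segments took 6 of the 10 largest ratios in this pair.

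In cTEC, 17 segments had enough reads, of which 1 stood higher and 5 stood lower in knockout cTEC, against 1.2% of all 14445 genes in either direction (0.492% higher and 0.706% lower). The higher one was Igkv4-59, with 0 and 87 reads, 25.3-fold with the 0 set to the floor of 3 counts. The lower ones were Igkv3-2 (51 and 2 reads, −4.56, −7.95 to −2.94), Ighg1 (44 and 6, −2.97), Ighg2c (229 and 34, −2.93, −3.51 to −2.43), Igkv4-68 (98 and 20, −2.46) and Iglv1 (135 and 64, −1.27). The median log2 ratio was −0.20 and the median size 0.86, beside 0.0100 and 0.13 over all genes. The comparisons in mTEC and cTEC share no library.

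Nearly all genes with 20 or more reads in 1 library of a genotype pair and 0 in the other were V segments. In the mTEC pair, 8 genes of the whole table met this description (0.045% of 17774), and all 8 were V segments, out of 50 segments with 20 or more reads in a library of the pair. They were Igkv2-112, Igkv1-135, Ighv1-22, Ighv7-4, Igkv3-5 and Igkv5-37, read in the control library, and Ighv9-3 and Igkv4-61, read in the knockout library. In the cTEC pair there were 15 such genes (0.0966% of 15530), of which 14 were V segments (out of 40) and the other was the plasma antiprotease gene Serpina1a. Within this pair, 7 of the 14 had reads in knockout cTEC alone, among them Igkv4-59 (87 reads), Igkv8-30 (43) and Ighv1-22 (42), and 7 in control cTEC alone, among them Ighv7-1 (43), Igkv4-72 (36) and Ighv1-15 (34). Between populations, 15 of 50 segments and 2.28% of all genes met it in the controls, and 7 of 45 segments and 2.51% of all genes in the knockouts.

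**Figure D3:**
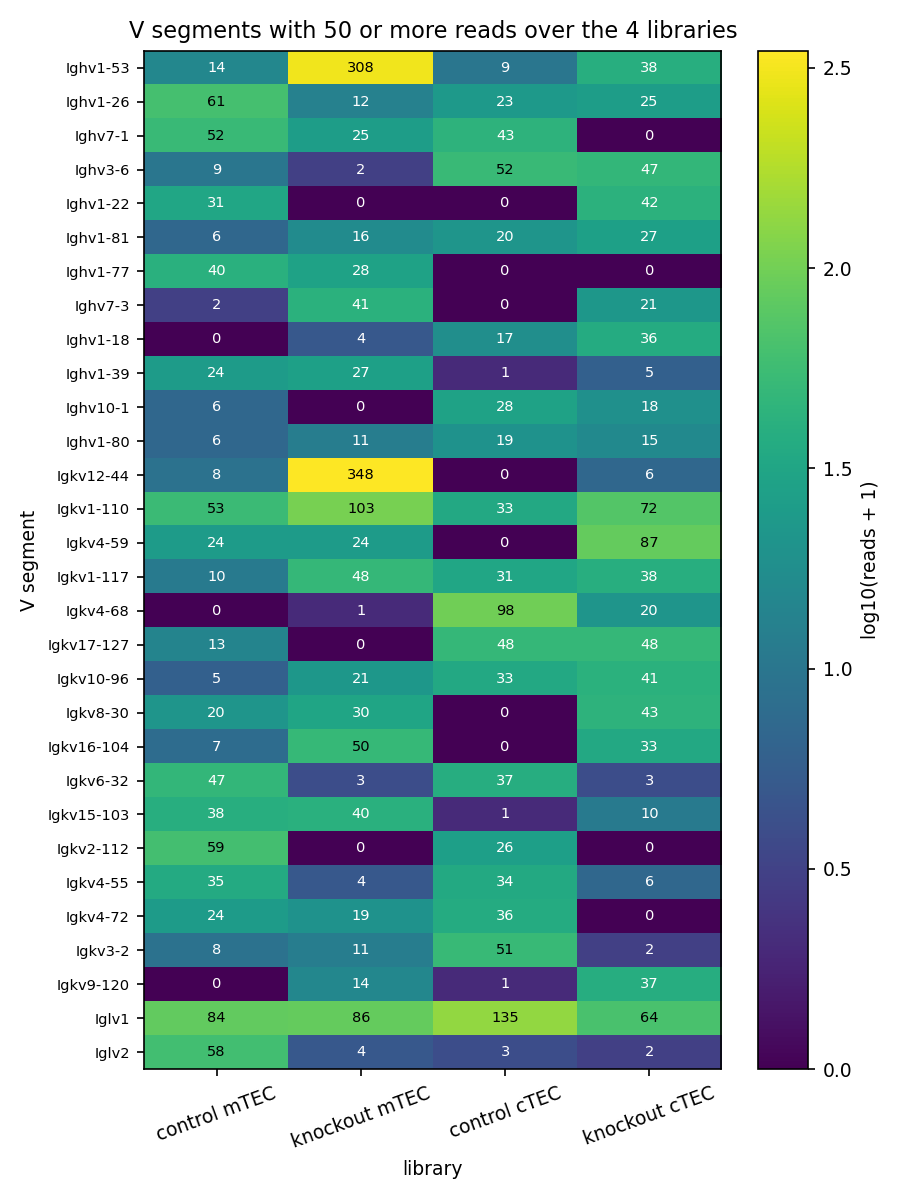
Reads of the 30 V segments with 50 or more reads over the 4 libraries; each cell prints the read count and its colour gives log10(reads + 1), with heavy segments at the top, then kappa, then lambda. Igkv12-44 (348) and Ighv1-53 (308) in knockout mTEC are the highest cells, and many rows hold a 0 in 1 library beside 20 or more reads in another.

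A few V segments differed by genotype in the same direction in both populations. With 50 or more reads over the 4 libraries, 4 of 41 segments were at least 2-fold higher in both knockout libraries than in either control library (0.0389% of all 18012 genes, 7 in number). These were Ighv1-53, Igkv16-104 (7, 50, 0 and 33 reads), Ighv7-3 (2, 41, 0 and 21) and Igkv9-120 (0, 14, 1 and 37). Another 3 were at least 2-fold higher in both controls (0.0333% of all genes, 6 in number). They were Igkv2-112, Igkv6-32 (47, 3, 37 and 3) and Igkv4-55 (35, 4, 34 and 6). Whether the mTEC and cTEC libraries of a genotype came from the same mice is not stated in the labels.

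Between populations, immunoglobulin reads differed less than B cell genes did. The sum over all segments was 1.19-fold higher in mTEC than in cTEC in the controls (log2 ratio 0.25, 0.19 to 0.31) and 1.66-fold in the knockouts (0.73, 0.68 to 0.79). The 13 B cell markers listed here (none at 0 in any library) summed to 140 and 146 CPM in mTEC and 27.0 and 21.5 in cTEC. The log2 ratio of this sum was 2.37 in the controls and 2.76 in the knockouts. Fcer2a alone held 1007 of the 2379 and 1048 of the 2560 marker reads in mTEC, and Ebf1 197 of 413 and 165 of 377 in cTEC. The log2 ratio was smaller for Cd79a (1.27 and 1.32) and Cd79b (1.81 and 2.06). Of the 10 markers with enough reads in the controls 9 were higher in mTEC, and of the 11 in the knockouts 10, against 19.0% and 19.8% of all genes. Ebf1 was the member that did not pass (194, 223, 197 and 165 reads). Cr2, the complement receptor of B cells, had 349 and 335 reads in mTEC and 8 in each cTEC library. For each read of the B cell receptor subunit genes Cd79a and Cd79b there were 28.3 (24.5 to 32.7), 34.6 (30.1 to 39.9), 72.9 (56.3 to 96.2) and 66.4 (52.0 to 86.2) immunoglobulin reads. Both cTEC libraries lay above both mTEC libraries on this ratio. Per read of the plasma cell gene Jchain the order differed, with 16.4, 25.7, 22.7 and 17.7 immunoglobulin reads and knockout mTEC the highest.

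Plasma cell genes gave a mixed picture. Jchain, which links IgM and IgA into polymers, had 342, 280, 186 and 244 reads, with a log2 ratio of mTEC over cTEC of 0.72 in the controls and 0.19 in the knockouts. The plasma cell receptor gene Tnfrsf17 had 73, 77, 14 and 11 reads and Derl3, of the endoplasmic reticulum, 147, 120, 30 and 36. Other genes of the list did not share this pattern: Tnfrsf13b had 53, 50, 32 and 43 reads, Eaf2 34, 42, 53 and 34, and Mzb1 14, 12, 19 and 22. Of the 10 genes with enough reads in each genotype, 4 were higher in mTEC and 0 lower. Of all genes, 19.0% and 19.8% were higher and 8.53% and 8.96% lower (controls, then knockouts). Sdc1 and Xbp1, which epithelial cells also express, held most reads of the list (Sdc1 with 2453, 2599, 3257 and 3286). The 11 genes of this list summed to 378, 390.5, 405 and 389 CPM, none of them at 0. In bulk RNA, fewer cells of a type and less RNA per cell cannot be told apart.

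**Figure D4:**
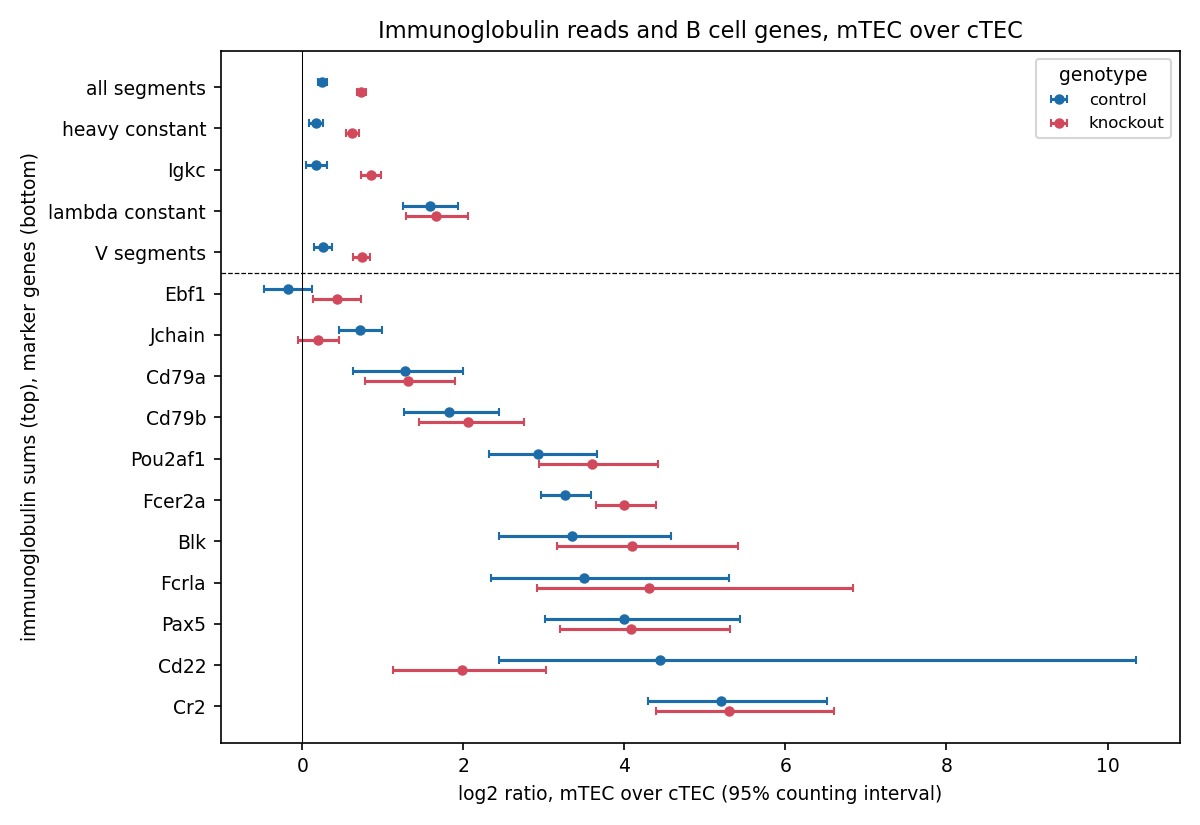
Log2 ratio of mTEC over cTEC, with 95% counting intervals, for sums of immunoglobulin segments (above the dashed line) and for Jchain and the B cell markers named on the axis, each with 100 or more reads (below it), in control and knockout libraries; ratios carry a prior of 0.5 reads per library. All segments together lie at 0.25 and 0.73, while Fcer2a, Pax5 and Cr2 lie above 3 in both genotypes.

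Single segments also differed between populations, as did many genes of the whole table. In the controls, 6 of 23 segments were higher in mTEC and 5 lower, against 19.0% and 8.53% of 15747 genes. In the knockouts, 9 of 22 were higher in mTEC and 2 lower, against 19.8% and 8.96% of 15962 genes. Across all 4 libraries, 7 of 41 were at least 2-fold higher in both mTEC libraries, no larger a share than the 19.2% of all genes. These were Ighg3, Ighd, Iglc2, Iglc3, Ighv1-77, Ighv1-39 and Igkv15-103. Another 5 were at least 2-fold higher in both cTEC libraries (5.8% of all genes), namely Ighv3-6, Ighv1-18, Ighv10-1, Igkv4-68 and Igkv17-127.

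**Figure D5:**
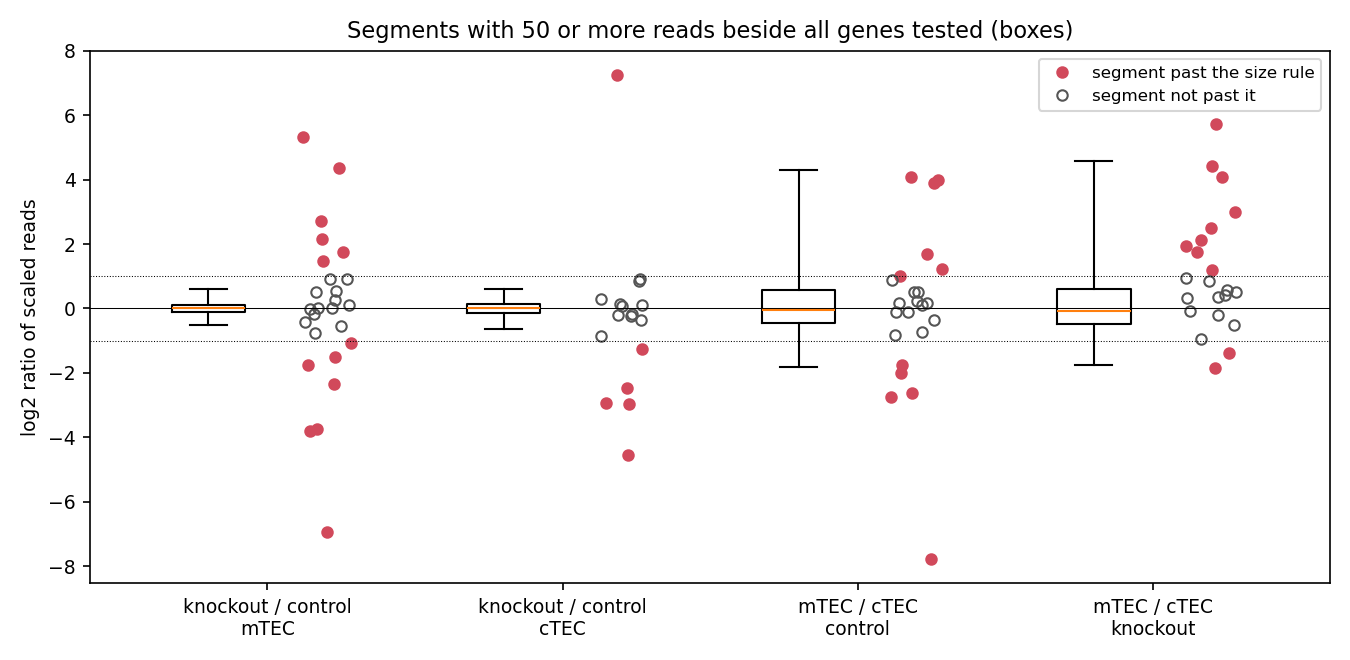
Log2 ratio of each immunoglobulin segment with 50 or more reads over the pair, for the 4 comparisons, beside boxes for all genes tested (line at the median, box from the 25th to the 75th and whiskers over the middle 95% of genes); ratios against 0 reads rest on the prior of 0.5 reads. Knockout against control, 13 of 26 segments passed the size rule in mTEC and 6 of 17 in cTEC, and the segments spread more widely than the boxes of all genes.

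B cell markers moved little between genotypes. None of the 11 with enough reads in mTEC passed the size rule, and their sum had a log2 ratio of 0.06 (−0.02 to 0.14), while the immunoglobulin sum had 0.32 (0.27 to 0.37). In cTEC none of 4 passed, and the sum stood at −0.33 (−0.53 to −0.12), beside −0.17 (−0.23 to −0.11) for immunoglobulin. Thymocyte markers (9 genes, none at 0) summed to 158 and 199 CPM in mTEC and 227 and 295 in cTEC, and myeloid and dendritic cell markers (7 genes, none at 0) to 313 and 350 in mTEC and 73.5 and 94.01 in cTEC. Their part in the immunoglobulin levels was not tested. Of the genes for binding or carrying antibody, the polymeric immunoglobulin receptor gene Pigr had 794, 971, 356 and 432 reads and the neonatal Fc receptor gene Fcgrt 840, 806, 939 and 963. None of the 7 genes of that list tested in mTEC or of the 5 in cTEC passed between genotypes. Of the rearrangement and surrogate light chain genes, Rag1 had 544, 662, 756 and 997 reads and Igll1 had 45, 77, 11 and 10, and none passed between genotypes (5 tested in mTEC and 3 in cTEC).

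The 4 segments that gained the most reads in knockout mTEC were Ighg2b, Igkc, Ighv1-53 and Igkv12-44. They were chosen for that gain, so leaving them out had to lower the ratio of the sum, and no matching set that lost reads was left out. Without them the other 260 segments had 4124 control and 3622 knockout reads, a log2 ratio of −0.23 (−0.30 to −0.17). In cTEC the same 260 segments had −0.12 (−0.19 to −0.05).

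Libraries overlapped far less in V use than in other genes. The overlap of V use, taken as the sum of the smaller of both shares over the 100 V segments with 10 or more reads, was 43.2% between control and knockout mTEC and 42.0% between control and knockout cTEC. The same measure was 78.2% and 86.8% over the 12 constant genes with a read, and 97.0% and 95.9% over 18012 genes with 50 or more reads. Between populations it was 40.6% in the controls and 40.5% in the knockouts for V segments. For the same pairs it was 89.2% and 72.8% over the constant genes. Over the genes with 50 or more reads it was 81.5% and 81.1%, lower than between genotypes. Few V segments have over 50 reads, and how far counting error lowers these overlaps was not tested. With 10 or more reads, 24 V segments were shared by control mTEC (45.3% of its segments) and knockout mTEC (51.1%), and 15 by control cTEC (42.9%) and knockout cTEC (44.1%). The matching shares over all genes were not computed.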

How the data were processed

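The deposited values are unnormalized read counts for each gene in 4 libraries. CASAVA, HISAT2 2.0.5, featureCounts 1.5.0-p3 and build mm10 appear in the submitters' processing notes. Strand setting, annotation and the handling of reads with several matches: not given in the sources used here. Gene lengths (other unit: bases, per the file headers) gave levels per kilobase. All 264 segments matched GENCODE M21 in identifier and position.

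Counts were scaled with TMM factors (edgeR 4.0.16, R 4.3.3; 0.966 to 1.03) and analysed with Python 3.11.15, numpy 2.4.6, pandas 2.3.3, scipy 1.17.1 and Biopython 1.88. Log2 ratios carry a prior of 0.5 reads per library and an exact conditional binomial (Clopper-Pearson) 95% interval; levels have exact Poisson intervals. The intervals and the floor of 3 counts cover counting error only, since reads are not separate molecules. With 1 library per group, no test was made.

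Members and lists were chosen with earlier results of these data known. Not every listed marker gene is reported here on its own. Named are constant genes with 10 or more reads, the 5 best-read V segments per chain, the leader of each library, members past the size rule, and others listed by a stated count. Alternatives were DESeq2 1.42.0 size factors, unscaled totals, other read minimums, counts per kilobase and added pseudogenes.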

Additional observations from a re-analysis of the deposited data

Results flagged for a closer look

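Several immunoglobulin results lay in opposite directions between genotypes in mTEC and in cTEC, with both counting intervals excluding equality; with 1 library per group the difference between populations was not tested. The difference of the log2 ratios (mTEC minus cTEC) was 0.48 for the sum of all segments, 2.62 for Ighg2b, 4.44 for Ighg1 and 0.68 for Igkc, each higher in knockout mTEC and lower in knockout cTEC than in its control. It was −0.31 for Ighm and −0.70 for Igha, which were lower in knockout mTEC and higher in knockout cTEC. Ighg1 had a log2 ratio of 1.46 (0.93 to 2.05) in mTEC and −2.97 (−4.59 to −1.84) in cTEC.

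Immunoglobulin genes of other labels, mostly V pseudogenes, were not among the segments described. Of 165 such genes 21 had a read, with 20 reads in control mTEC and 36 in knockout mTEC, above the floor of 3 counts, and 0 and 1 in the cTEC libraries. The best-read were Ighv1-73 (3 and 5 reads in mTEC), Ighv1-30 (2 and 4) and Ighv1-60 (0 and 6).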

How the results depend on the processing

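The mTEC sum of all segments (log2 ratio of knockout over control 0.32) was 0.46 without Ighm and −0.23 without Ighg2b, Igkc, Ighv1-53 and Igkv12-44, an alternative added after seeing the data and chosen for their gain in reads. The cTEC sum (−0.17) was −0.31 without Ighm. The mTEC over cTEC sum was 0.34 in the controls and 0.83 in the knockouts with unscaled totals, and in the knockouts 1.02 without Ighm and 0.19 without those 4 segments. Counts past the size rule, in the order genotype in mTEC, genotype in cTEC, population in controls and population in knockouts, were 13, 6, 11 and 11. With a minimum of 10 reads they were 50 of 96, 44 of 67, 63 of 85 and 52 of 78 segments tested, while 3.48%, 4.43%, 33.0% and 34.2% of all genes passed. With none they were 58 of 172, 53 of 121, 77 of 152 and 63 of 154 (all genes 3.0%, 4.3%, 24.8% and 25.5%). With 200 they were 3 of 8, 1 of 5, 1 of 6 and 3 of 6 (all genes 0.153%, 0.176%, 19.7% and 20.7%). Without segments sharing 25% or more of their windows, also added after seeing the data, they were 9 of 20, 4 of 10, 8 of 18 and 7 of 15. Per kilobase, the share of Ighm among heavy constant reads was 63.0%, 48.0%, 57.9% and 73.0%, and that of Ighg2c moved by over 1.5 times in all 4 libraries. Of 41 calls on single segments, 41 stayed past the rule with DESeq2 size factors and with unscaled totals, and 8 with 200 reads. Leading V shares stayed within their intervals per kilobase and with pseudogenes added. Depth limits single segments: 30 of 218 V segments and 11 of 13 constant genes, but no D or J segment, have 50 or more reads over the 4 libraries. No paired analysis was possible because each group has 1 library, so compared groups share 1 replicate number. An additive fit of genotype and population, with populations as blocks, was not run. No replicate could be left out.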
